A study of Mus musculus with 8 samples.

Results

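Interferon-stimulated genes were measured in the livers of mice administered a standard chow (STD) diet or an atherogenic (ATH) diet. The list held 36 genes, chosen by name: 24 that are best known as targets of type I interferon and 12 that are best known as targets of interferon gamma. A probe detected in these livers was found for 35 of the 36 (23 type I genes and all 12 gamma-type genes), out of 16557 genes with a detected probe. Xaf1 had no probe under its name and was not analysed here. All mice were male wild-type C57BL/6 mice (C57BL/6J in the Methods) aged 14 to 17 weeks at the start. The 4 STD mice received chow, and the 4 ATH mice received a diet high in fat and cholesterol with added cholic acid, a model of fatty liver disease with inflammation, for 4 weeks. RNA of the whole liver was measured on 1 single-color Agilent array for each mouse, so p-values reflect the spread between mice.

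Interferons are secreted proteins that warn cells of infection. Type I interferons (alpha and beta) are made by many cell types, bind the receptor Ifnar and activate a complex that holds Stat2 and Irf9 and binds a DNA element called the interferon-stimulated response element (ISRE). Interferon gamma is made mainly by T cells and natural killer (NK) cells, binds another receptor and acts through a DNA element called the gamma-activated site (GAS). The classes overlap, since many genes answer both kinds of interferon, and the split used here is a convention. In liver, hepatocytes, macrophages and endothelial cells can all answer interferon, and in bulk tissue fewer cells of a type and less RNA per cell cannot be told apart.

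Values are the log2 processed signal of a probe minus the 75th percentile of all non-control probes on its array, called scaled signal below. A difference of 1 is a doubling. They compare arrays for 1 probe and do not compare genes with each other. The percentile lay 0.45 higher on the ATH arrays before scaling (0.14 for the spike-in probes), and the median gene had a log2 fold change of -0.14 once scaled. The STD arrays shared a slide and the ATH arrays shared another, so an effect of the slide and one of the diet cannot be told apart. The share of spots well above background was 72.3% to 77.3% on the STD arrays and 72.9% to 77.8% on the ATH arrays. The measured members were well above background on all 8 arrays. Of the hepatocyte markers, 6 of 8 had a detected probe, and each of these 6 was well above background on all 8 arrays. Over all detected probes ATH replicates 1 and 2 correlated at 0.9886 and ATH replicates 3 and 4 at 0.9897, against 0.9711 to 0.9805 between these pairs. ATH replicate 2 was the lowest of the ATH arrays in 12 of 12 gamma-type genes and in 20.3% of all genes. It was so in 9 of 10 macrophage, 5 of 8 T cell, 5 of 6 NK cell and 4 of 4 B cell markers. The counts were 3 of 5 for neutrophil and 2 of 6 for plasmacytoid dendritic cell markers. Results that rest on it are therefore also given without it. That array was singled out after the values were seen, so p-values and calls without it are no independent test.

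The letters of these DNA elements are a feature of the promoters that the choice of genes did not use. Promoter windows from RefSeq (GRCm38.p6, 250 bases before to 50 after the start) were at hand for 28 of the 36 genes. The ISRE core, GAAANNGAAA on either strand, occurred in 10 of 18 type I genes with a window (55.6%) and in 4 of 10 gamma-type genes (40%), against 1079 of 27025 genes of the whole table (3.99%). The GAS letters, TTCNNNGAA, which read the same on both strands, occurred in 4 of 18 type I genes (22.2%) and 4 of 10 gamma-type genes (40%), against 9.55% of the whole table. A gene was counted where any of its windows matched. Neighbouring ISRE matches can share GAAA, as in Isg15. The GAS match in Bst2 shared 3 bases with an ISRE match. ISRE matches before the start are shown for the 6 genes that rose and held one, with Igtp added as a gamma-type gene that was not called. GAS matches are shown for gamma-type genes that rose, with Irf1 added, and those of Ifit2, Oas1a and Bst2, type I genes that rose, are not shown. Capitals mark the matched letters of the motif that a set shows, and the windows are read 5′ to 3′ on the strand of the gene. The first set shows the ISRE core:
Isg15 (chr4:156200855-156200916, - strand): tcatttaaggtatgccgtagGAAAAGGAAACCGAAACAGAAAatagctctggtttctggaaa
Oas1a (chr5:120907526-120907565, - strand): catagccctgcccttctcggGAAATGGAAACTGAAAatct
Oas3 (chr5:120777705-120777754, - strand): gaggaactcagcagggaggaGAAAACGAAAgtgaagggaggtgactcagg
Bst2 (chr8:71537567-71537622, - strand): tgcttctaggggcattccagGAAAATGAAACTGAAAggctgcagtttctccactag
Gbp2 (chr3:142620584-142620633, + strand): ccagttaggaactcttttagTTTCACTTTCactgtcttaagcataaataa
Gbp3 (chr3:142559979-142560034, + strand): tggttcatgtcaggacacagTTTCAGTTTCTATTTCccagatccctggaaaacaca
Igtp (chr11:58199502-58199551, + strand): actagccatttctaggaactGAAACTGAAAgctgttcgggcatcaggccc
The second set shows GAS letters in gamma-type genes:
Irf1 (chr11:53769904-53769952, + strand): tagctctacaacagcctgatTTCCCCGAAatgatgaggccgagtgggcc
Irf8 (chr8:120736167-120736233, + strand): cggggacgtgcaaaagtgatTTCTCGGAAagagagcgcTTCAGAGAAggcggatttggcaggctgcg
Psmb8 (chr17:34198078-34198126, + strand): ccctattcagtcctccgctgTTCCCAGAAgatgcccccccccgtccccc
Isg15 held 3 overlapping ISRE matches between 78 and 66 bases before the start, and Oas1a, Bst2 and Gbp3 held 2 each. A match is a description of letters and not a bound site. Of the measured members with a window, 6 of 14 with an ISRE match and 5 of 13 without it rose on the ATH diet, as did 5 of 8 with a GAS match and 6 of 19 without it. These counts are a description with no test.

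On the ATH diet, 14 of the 35 measured genes rose and none fell (limma with Benjamini-Hochberg adjustment over every detected probe, at a false discovery rate of 5%). The 14 were 10 of 23 type I genes and 4 of 12 gamma-type genes. Of all 16557 genes, 4.05% rose and 5.30% fell by the same rule. At a rate of 1%, the threshold the Methods name, Ifi44 alone remained, against 0.260% of all genes that rose. In 16 of 35 genes (12 type I and 4 gamma-type) all 4 ATH arrays lay above all 4 STD arrays, against 7.59% of all genes. The median log2 fold change was 0.65 for type I genes and 0.87 for gamma-type genes, and 33 of 35 genes were higher in mean. The 2 that were lower in mean, Oasl1 and Ifi35, were both higher in mean without scaling or with spike-in scaling, and Ifi35 also with quantile normalization.

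**Figure D1:**
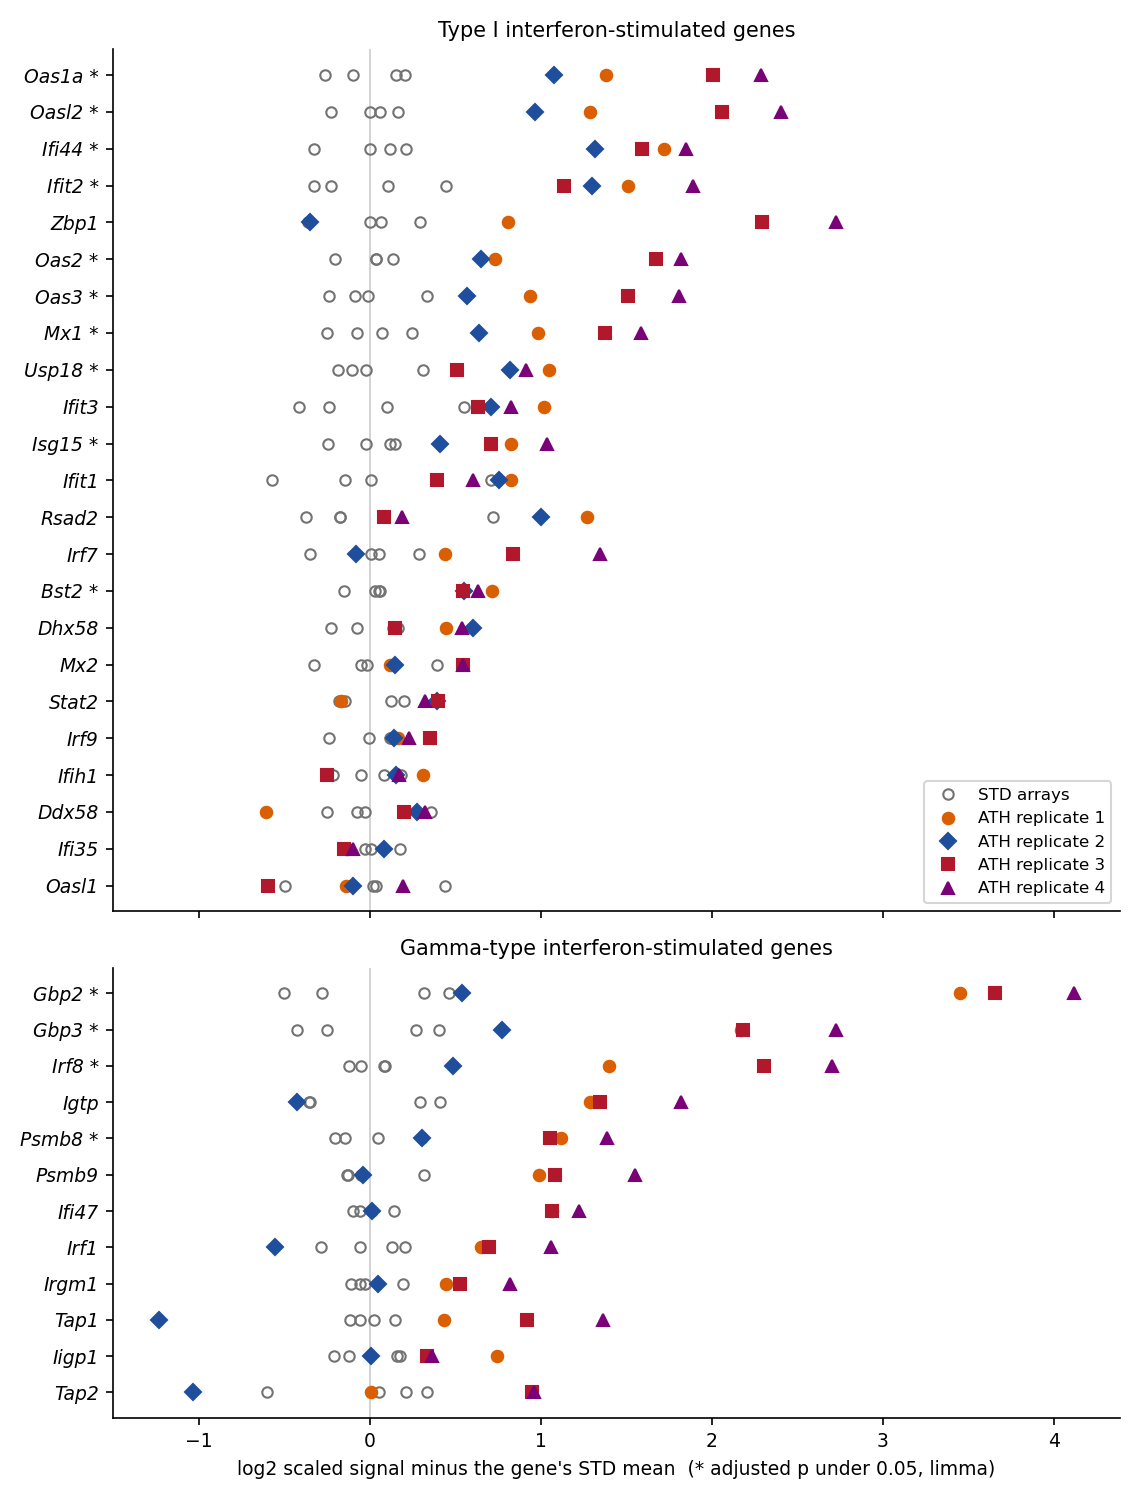
Scaled log2 signal of each measured member on each array, minus the mean of that gene on the STD arrays (x axis), with open circles for the 4 STD arrays, 1 filled symbol for each ATH array and an asterisk on genes that passed a false discovery rate of 5% by limma. ATH replicate 2 (blue diamonds) lies lowest of the ATH arrays in all 12 gamma-type genes and in 10 of 23 type I genes.

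Both genes of the ISG15 system rose, where 4.05% of all genes did. Isg15 is a ubiquitin-like protein that is secreted and attached to other proteins. The gene lies at chr4:156199424-156200818, whereas the array files, which use an older assembly, place its probe on another chromosome. Its scaled signal was 0.85, 1.22, 1.25 and 1.08 on the STD arrays and 1.93, 1.51, 1.81 and 2.14 on the ATH arrays. The groups did not overlap, and ATH replicate 2 was closest to the STD arrays. Its log2 fold change was 0.75 ± 0.16 (SE, adjusted p = 0.0342). Usp18 removes Isg15 from proteins and dampens the type I receptor. Usp18 had a scaled signal of 0.57, 0.98, 0.49 and 0.65 on the STD arrays and 1.72, 1.49, 1.18 and 1.58 on the ATH arrays, again without overlap, and the log2 fold change was 0.82 ± 0.16 (SE, adjusted p = 0.0265). Here ATH replicate 3 was the lowest of the ATH arrays.

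The IFIT proteins bind viral RNA and block its translation, and 1 of 3 rose, where 4.05% of all genes did. A count of 1 in so small a group is not a result about the group. The scaled signal of Ifit2 was -3.13, -2.79, -3.47 and -3.57 on the STD arrays and -1.73, -1.94, -2.10 and -1.35 on the ATH arrays. All ATH arrays lay above all STD arrays, and the log2 fold change was 1.46 ± 0.22 (SE, adjusted p = 0.0131), a 2.75-fold difference. A further probe of Ifit2 was also called, at 0.89 (adjusted p = 0.0444). Ifit3 had a log2 fold change of 0.80 ± 0.21 (SE, adjusted p = 0.0534) with no overlap of the groups. Ifit1 had 0.65 ± 0.25 (SE, adjusted p = 0.135), and its highest STD array lay above 2 of the ATH arrays.

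Mx proteins are GTPases that trap viral particles. Common laboratory strains such as C57BL/6 carry an Mx1 allele that makes no working protein. Its scaled signal was -3.64, -3.47, -3.79 and -3.96 on the STD arrays and -2.73, -3.08, -2.34 and -2.13 on the ATH arrays, with no overlap, and the log2 fold change was 1.15 ± 0.22 (SE, adjusted p = 0.0231). Its dimmer probe had 0.30 (adjusted p = 0.576). Mx2 had a log2 fold change of 0.34 ± 0.19 (SE, adjusted p = 0.261) and its groups overlapped.

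The OAS enzymes make short 2′-5′ linked adenylates that switch on the RNA-cutting enzyme RNase L, and 4 of 5 measured members rose, where 4.05% of all genes did. Of relatives outside the list of members, Oas1g had a log2 fold change of -1.18 (adjusted p = 0.0714). With normexp background correction it had -0.51 (limma, adjusted p = 0.044), a setting where 15.8% of all genes were called lower. Its ATH arrays all lay below all STD arrays, as in 2421 of 16557 genes. The Oas1g probe was well above background on 4 STD arrays but only 1 ATH array, so it entered through the STD arrays alone. Oas1b had 0.36 (adjusted p = 0.249) but -0.14 with normexp background correction, and was well above background on 2 STD and 3 ATH arrays. The OAS members lie on chromosome 5 of GRCm38.p6 in clusters, with Oas2 at chr5:120730333-120749886, Oas3 at chr5:120753098-120777684 and Oas1a at chr5:120896256-120907544. The scaled signal of Oas1a was -0.89, -0.73, -0.43 and -0.48 on the STD arrays and 0.75, 0.44, 1.38 and 1.66 on the ATH arrays. The log2 fold change was 1.69 ± 0.27 (SE, adjusted p = 0.0143), a 3.22-fold difference. Oas1a belongs to a set of near-identical copies with which its probe may share transcripts, which was not tested. Oasl2, a relative of the OAS enzymes that ends in ubiquitin-like domains, had a scaled signal of -0.81, -0.98, -0.92 and -1.21 on the STD arrays and 0.31, -0.016, 1.08 and 1.42 on the ATH arrays. Its log2 fold change was 1.68 ± 0.30 (SE, adjusted p = 0.0194). In both genes ATH replicates 3 and 4 were the highest, and ATH replicate 2 was the lowest of its diet but still above every STD array.

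Oas2 had a scaled signal of -1.60, -1.84, -1.50 and -1.60 on the STD arrays and -0.90, -0.99, 0.036 and 0.18 on the ATH arrays, and its log2 fold change was 1.22 ± 0.28 (SE, adjusted p = 0.037). A dimmer probe of Oas2 had a log2 fold change of -0.34 (adjusted p = 0.553), so the probes of this gene disagreed. Oas3 had a scaled signal of -4.30, -4.08, -3.73 and -4.15 on the STD arrays and -3.13, -3.49, -2.55 and -2.26 on the ATH arrays and a log2 fold change of 1.21 ± 0.27 (SE, adjusted p = 0.0353). Its dimmer probe had 1.40 (adjusted p = 0.0080). The remaining member, Oasl1, had a log2 fold change of -0.16 ± 0.23 (SE, adjusted p = 0.679) at 75th percentile scaling and 0.29 without scaling. Its groups overlapped.

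None of the 4 nucleic acid sensors passed the test (limma, 2 of 4 with an unadjusted p under 0.05). The helicases Ddx58 (RIG-I) and Ifih1 (MDA5), which detect viral RNA in the cytoplasm, had log2 fold changes of 0.049 (adjusted p = 0.907) and 0.10 (adjusted p = 0.718). Their relative Dhx58 (LGP2) had 0.43 (adjusted p = 0.102). Zbp1, a sensor of nucleic acids in the left-handed Z form that can start cell death, had the largest difference of the group. Zbp1 had a scaled signal of 0.58, -0.075, 0.35 and 0.29 on the STD arrays and 1.10, -0.06, 2.58 and 3.01 on the ATH arrays. ATH replicates 3 and 4 lay far above the STD arrays, ATH replicate 1 lay above them by less, and ATH replicate 2 lay within their range. The log2 fold change was 1.37 ± 0.60 (SE, adjusted p = 0.171), and it was 1.94 ± 0.42 (SE, adjusted p = 0.024) without ATH replicate 2.

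Of the 4 other measured antiviral genes, Ifi44 and Bst2 rose, where 4.05% of all genes did. Ifi44, named for its induction by interferon, had a scaled signal of -1.90, -1.69, -1.78 and -2.23 on the STD arrays and -0.18, -0.58, -0.30 and -0.048 on the ATH arrays. Its log2 fold change was 1.62 ± 0.17 (SE, adjusted p = 0.00423), a 3.08-fold difference, and the ATH arrays were close to each other (SD 0.23, against 0.24 on the STD arrays). A dimmer probe of Ifi44 had a smaller log2 fold change, 0.71 (limma, adjusted p = 0.0466). Bst2 (tetherin) holds budding virus at the cell surface. Its scaled signal was 6.41, 6.62, 6.61 and 6.59 on the STD arrays and 7.27, 7.10, 7.10 and 7.19 on the ATH arrays, and the log2 fold change was 0.61 ± 0.11 (SE, adjusted p = 0.0219). The ATH arrays of Bst2 spanned less than the distance to the STD arrays. Rsad2 (viperin), which makes a chain-ending nucleotide, had 0.64 ± 0.33 (SE, adjusted p = 0.237), and ATH replicates 1 and 2 lay above all STD arrays while ATH replicates 3 and 4 did not. Ifi35 had -0.074 ± 0.12 (SE, adjusted p = 0.723).

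Of the transcription factors of both classes, 1 of 5 rose, where 4.05% of all genes did, and a count of 1 is not a result about the group. Irf8 is a gamma-type factor that also shapes monocytes, macrophages and dendritic cells. Irf8 had a scaled signal of 0.50, 0.64, 0.43 and 0.63 on the STD arrays and 1.95, 1.04, 2.85 and 3.26 on the ATH arrays. The 4 ATH arrays covered a range of over 2 on the log2 scale, and ATH replicate 2 was the lowest, yet above all STD arrays. The log2 fold change was 1.72 ± 0.42 (SE, adjusted p = 0.043), and 2.14 ± 0.28 (SE, adjusted p = 0.0049) without ATH replicate 2. Its dimmer probe had 1.58 (adjusted p = 0.0785). The type I factors Irf7, which amplifies interferon production, Irf9 and Stat2 had log2 fold changes of 0.64 (adjusted p = 0.186), 0.22 (adjusted p = 0.283) and 0.24 (adjusted p = 0.381). Irf1, an early target of interferon gamma, had 0.46 ± 0.32 (SE, adjusted p = 0.363), with 3 ATH arrays above all STD arrays and ATH replicate 2 below all of them.

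The guanylate-binding proteins (GBP) and immunity-related GTPases (IRG) attack the vacuoles in which microbes live. Both GBP members of the list rose, where 4.05% of all genes did. Outside the list, Gbp4 (Mpa2 in the array files), Gbp5, Gbp6 and Gbp7 had log2 fold changes of 1.73, 2.02, 1.62 and 0.78. None of these passed the test (limma, adjusted p = 0.0807, 0.099, 0.0834 and 0.110). The GBP members lie close together on chromosome 3, Gbp3 at chr3:142560016-142573213 and Gbp2 at chr3:142620663-142638008. The scaled signal of Gbp2 was -0.41, -0.27, -1.01 and -1.23 on the STD arrays and 2.72, -0.19, 2.93 and 3.39 on the ATH arrays. ATH replicates 1, 3 and 4 were at 2.72 or above, whereas ATH replicate 2 exceeded the highest STD array by only 0.075. The mean scaled signal was -0.73 ± 0.46 on the STD diet and 2.21 ± 1.63 on the ATH diet (mean ± SD, n = 4 each), and the log2 fold change of 2.94 ± 0.70 (SE, adjusted p = 0.0412) was the largest of the 35 genes (7.68-fold). Without ATH replicate 2 it was 3.74 ± 0.28 (SE, adjusted p = 0.00157).

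Gbp3, which the array files name Gbp4 and whose transcript RefSeq assigns to Gbp3, had a scaled signal of 0.45, 0.58, -0.071 and -0.25 on the STD arrays and 2.35, 0.95, 2.36 and 2.91 on the ATH arrays. Its log2 fold change was 1.96 ± 0.39 (SE, adjusted p = 0.0267), and 2.36 ± 0.25 (SE, adjusted p = 0.00287) without ATH replicate 2. The probe may share transcripts with neighbouring members of this gene family, which was not tested. None of the 4 IRG members passed the test with all arrays (limma, 2 of 4 with an unadjusted p under 0.05). Their log2 fold changes were 1.01 (adjusted p = 0.179) for Igtp, 0.84 (adjusted p = 0.0727) for Ifi47, 0.46 (adjusted p = 0.124) for Irgm1 and 0.36 (adjusted p = 0.216) for Iigp1. Of IRG genes outside the list, Irgm2 had 0.68 (adjusted p = 0.15) and Tgtp1 had 2.555 (adjusted p = 0.0755). Igtp (Irgm3) had a scaled signal of 4.24, 4.36, 3.60 and 3.59 on the STD arrays and 5.23, 3.52, 5.29 and 5.77 on the ATH arrays. Ifi47 (Irg47) had one of 1.79, 2.03, 1.83 and 1.90 on the STD arrays and 2.95, 1.90, 2.95 and 3.11 on the ATH arrays. In each of the 4 IRG members ATH replicates 1, 3 and 4 lay above all STD arrays and ATH replicate 2 did not. Without ATH replicate 2, Igtp, Ifi47 and Irgm1 passed the test, with log2 fold changes of 1.49, 1.12 and 0.60, and Iigp1 did not, at 0.48 ± 0.17 (SE, adjusted p = 0.093).

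Psmb8 and Psmb9 are the immunoproteasome subunits that replace housekeeping ones and shape peptides for antigen presentation, and Tap1 and Tap2 carry those peptides into the endoplasmic reticulum. The 4 genes are neighbours in the major histocompatibility complex, from Psmb9 at chr17:34182030-34187330 to Tap2 at chr17:34204479-34216321. Psmb8 rose. Its scaled signal was 3.71, 4.16, 3.65 and 3.91 on the STD arrays and 4.98, 4.17, 4.91 and 5.24 on the ATH arrays, so that ATH replicate 2 lay only 0.0020 above the highest STD array. The log2 fold change was 0.97 ± 0.23 (SE, adjusted p = 0.0429), and a further probe gave 0.97 (adjusted p = 0.0417). Psmb9, Tap1 and Tap2 had log2 fold changes of 0.90 (adjusted p = 0.0979), 0.37 (adjusted p = 0.637) and 0.22 (adjusted p = 0.767). Without ATH replicate 2, Psmb9 (1.21) and Tap1 (0.91) passed the test and Tap2 did not, at 0.64 ± 0.31 (SE, adjusted p = 0.188). The scaled signal of Tap1 was 0.068, 0.33, 0.21 and 0.13 on the STD arrays and 0.62, -1.05, 1.11 and 1.55 on the ATH arrays, and that of Psmb9 was 3.19, 3.64, 3.19 and 3.27 on the STD arrays and 4.31, 3.28, 4.41 and 4.87 on the ATH arrays. On ATH replicate 2 Tap1 and Tap2 were lower than on any STD array, while Psmb9 lay within the STD range.

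On ATH replicate 2 the type I genes were high in median, and the gamma-type genes were near their STD level. When each gene was set to its STD mean, the median over the 23 type I genes was 0.81, 0.57, 0.55 and 0.82 on ATH replicates 1 to 4, and between -0.10 and 0.12 on the STD arrays. The median over the 12 gamma-type genes was 1.03, 0.0078, 1.06 and 1.38 on the same ATH arrays, and between -0.12 and 0.20 on the STD arrays. The type I median of all 4 ATH arrays thus lay above that of every STD array, while the gamma-type median of ATH replicate 2 lay within the STD range. The median over all genes was -0.047, -0.017, -0.23 and -0.23 on the ATH arrays. With quantile normalization, without scaling, with spike-in scaling and with normexp, the type I median of ATH replicate 2 was 0.65, 0.82, 0.65 and 0.40. Under each of these it was the lowest of the ATH arrays, yet above every STD array. The gamma-type median of that array was then 0.097, 0.253, 0.090 and 0.020, just above the STD range (up to 0.246) without scaling and within it otherwise. No p is given for these medians, because the members were chosen with results of these data known.

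**Figure D2:**
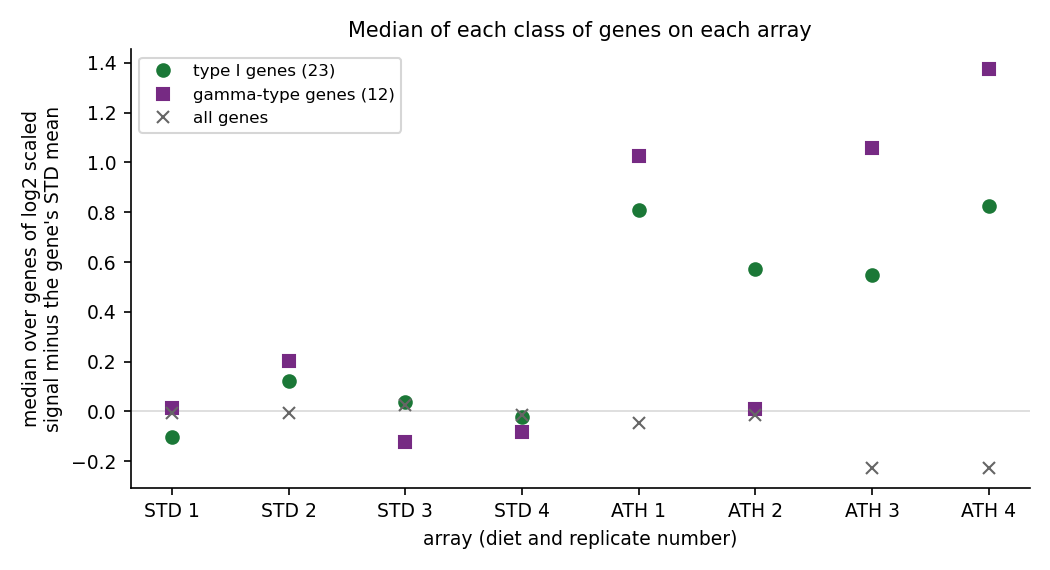
Median over genes of the scaled log2 signal minus the STD mean of each gene (y axis) on each of the 8 arrays (x axis), for the 23 type I genes, the 12 gamma-type genes and all 16557 genes. On ATH replicate 2 the type I median is 0.57 and the gamma-type median is 0.0078, whereas on the other ATH arrays the gamma-type median is the higher of the pair.

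ATH replicate 2 was the lowest of the ATH arrays in 12 of 12 gamma-type genes, in 10 of 23 type I genes and in 20.3% of all genes. It was so in 12 of 12 gamma-type genes also with quantile normalization, without scaling, with spike-in scaling and with normexp background correction. Under these 4 settings it was the lowest in 12, 14, 16 and 11 of 23 type I genes and in 24.96%, 42.4%, 46.5% and 16.4% of all genes, so the distance to the other groups moved with the scaling. It lay above all STD arrays in 16 of 23 type I genes (69.6%), in 4 of 12 gamma-type genes (33.3%) and in 26.0% of all genes. ATH replicates 1, 3 and 4 lay together above all STD arrays in 14 of 23 type I genes (60.9%), in 11 of 12 gamma-type genes (91.7%) and in 11.2% of all genes. The median SD over genes on the ATH arrays was 0.27 for type I genes and 0.77 for gamma-type genes, against 0.22 for both on the STD arrays and 0.27 and 0.19 for all genes on the ATH and STD arrays.

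The number of calls changed with the array left out. Without ATH replicate 2, 21 of 35 genes rose, 11 type I and 10 gamma-type, against 7.48% of all genes. Added to the 14 were Zbp1, Irf1, Igtp, Irgm1, Ifi47, Psmb9 and Tap1. The number of genes called was 9 without ATH replicate 1, 5 without ATH replicate 3 and 4 without ATH replicate 4, where 2.49%, 0.918% and 0.809% of all genes rose. It was 3, 10, 3 and 3 without STD replicates 1 to 4, where 0.640%, 1.33%, 0.604% and 0.791% did, so calls were lost among all genes too. In none of those 7 fits was more than 1 gamma-type gene called. Ifit2, Oas1a and Ifi44 were called whichever array was left out. Replicate numbers stand for the position of an array on its slide. With that number as a block, 7 genes were called (Usp18, Ifit2, Oasl2, Oas1a, Oas2, Oas3 and Ifi44), all type I, against 2.07% of all genes. No gamma-type gene was called with the block, although 6 of 12 had an unadjusted p under 0.05. The unequal-variance test that the Methods name, run here on the scaled values, called none of the 35 after adjustment at 5% or at 1%, with 16 at an unadjusted p under 0.05, and called 0.0181% of all genes higher at 5%. The study ran its test in GeneSpring, which was not used here.

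**Figure D3:**
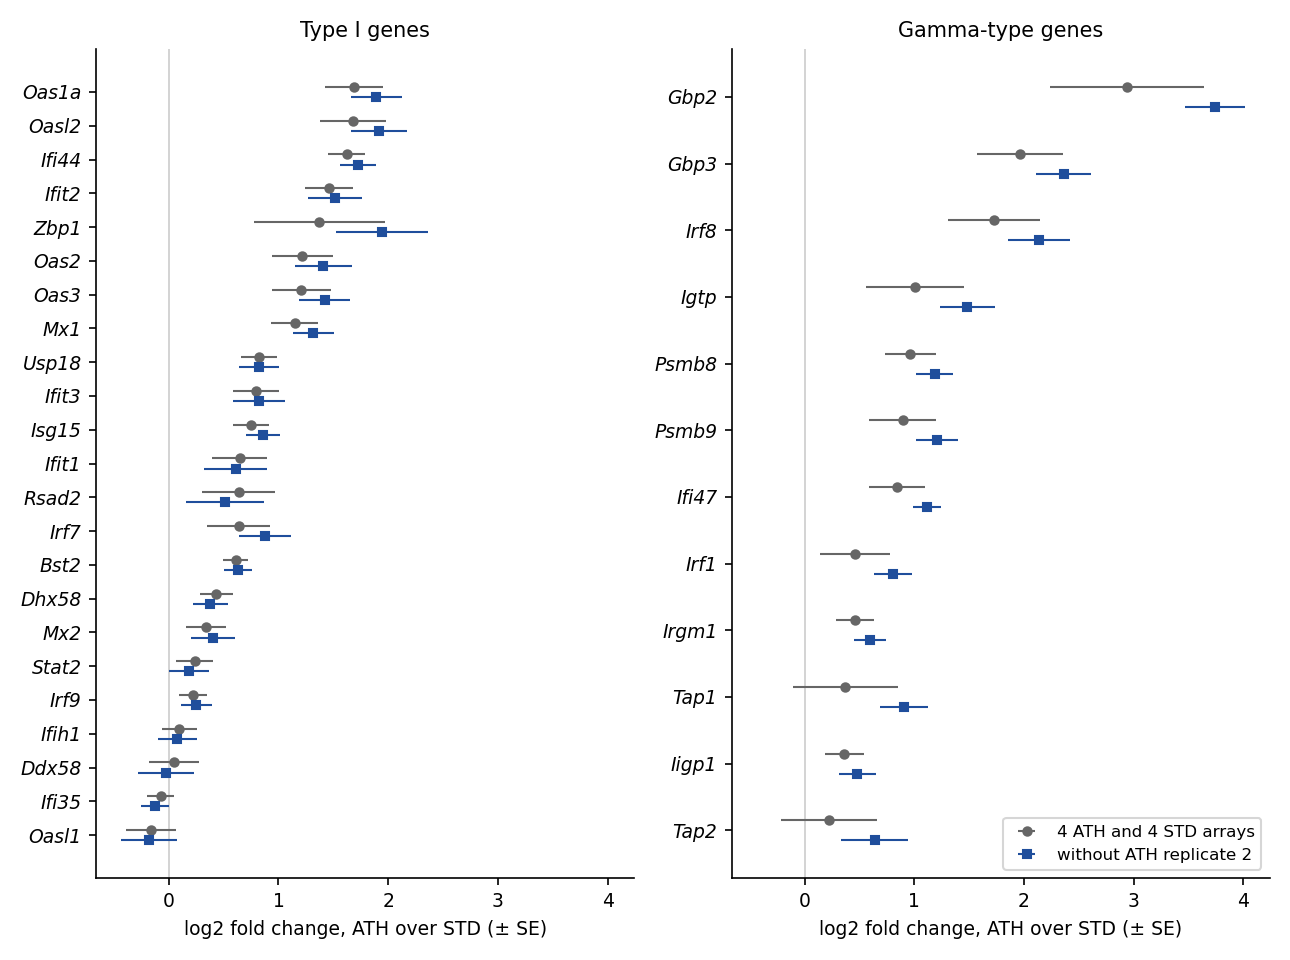
Log2 fold change of ATH over STD (x axis, ± SE from limma) for each measured member, with all 8 arrays (grey circles) and without ATH replicate 2 (blue squares). All 12 gamma-type values are higher without that array, for example Gbp2 at 3.74 against 2.94. This follows from that array being the lowest ATH array in each of them. Ifi44 moves from 1.62 to 1.72.

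Of 16 interferon genes 7 had a detected probe, each well above background on all 8 arrays, and 3 had no probe under their name. The probe of Ifnb1 was not well above background on any array. Of the 7, Ifna1, Ifna9, Ifna12, Ifna13, Ifnz and Ifnl3 were lower in mean on the ATH diet and none passed the test. Ifnz had a log2 fold change of -0.35 (adjusted p = 0.0912), and all its ATH arrays lay below all STD arrays. Such a split was seen in 2421 of 16557 genes. The difference of Ifnz moved with the scaling, to -0.042 when scaled by the spike-in probes and to 0.094 on unscaled values. It was -0.34 with quantile normalization and -0.32 with normexp background correction (limma, adjusted p = 0.0781 and 0.0380). The number lower in mean was 6 of 7 as scaled here and with normexp, but 1 without scaling, 3 with spike-in scaling and 5 with quantile normalization. Probes of the alpha interferons may share transcripts within that near-identical family, which was not tested. Interferon gamma (Ifng) had a scaled signal of -3.06, -2.68, -3.18 and -3.19 on the STD arrays and -1.58, -3.67, -1.42 and -0.49 on the ATH arrays. ATH replicates 1, 3 and 4 lay above all STD arrays and ATH replicate 2 lay below all of them, and the log2 fold change was 1.24 ± 0.57 (SE, adjusted p = 0.189). Of the receptors, Ifngr2, the signalling chain for interferon gamma, rose by 0.77 (adjusted p = 0.025) on the log2 scale, and Il10rb, shared by interleukin 10 and interferon lambda, rose by 1.01 (adjusted p = 0.0311). Of 12 measured interferon and receptor genes, 2 rose (4.05% of all genes) and none fell (5.30%). With normexp background correction 3 rose and 2 fell, where 5.62% of all genes rose and 15.8% fell. The difference of Ifng was 1.87 ± 0.28 (SE, adjusted p = 0.00678) without ATH replicate 2, and 4 of the 12 then rose, where 7.48% of all genes did. With the replicate number as a block none of the interferon and receptor genes, the signal carriers or the sensing genes was called.

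Of 11 signal carriers only Jak2, a kinase of the interferon gamma receptor, passed the test, at a log2 fold change of 0.65 (adjusted p = 0.0416). Socs1, a feedback inhibitor that interferon gamma induces, had a scaled signal of -1.31, -1.21, -0.46 and -1.95 on the STD arrays and 0.00064, -1.24, 0.86 and 1.55 on the ATH arrays and a log2 fold change of 1.52 ± 0.56 (SE, adjusted p = 0.118). ATH replicates 1, 3 and 4 lay above all STD arrays, and ATH replicate 2 lay within the STD range. Of 16 measured genes for sensing and induction, Tlr4, the receptor for lipopolysaccharide, rose by 1.16 (adjusted p = 0.046) on the log2 scale and Tlr9, a receptor for unmethylated CpG DNA, fell by 0.63 (adjusted p = 0.0409). These counts of 1 of 16 in each direction are near the 4.05% and 5.30% of all genes. None of the 16 was called lower with quantile normalization, without scaling or with spike-in scaling. Without ATH replicate 2, Socs1 had 2.04 ± 0.43 (SE, adjusted p = 0.0217). Of the carriers 3 of 11 then rose, and of the sensing genes 5 of 16 rose and 1 fell, where 7.48% of all genes rose and 7.37% fell.

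Further interferon-stimulated genes, from a list of 56, were measured for 51, of which 50 were higher in mean, 10 rose and none fell, against 4.05% and 5.30% of all genes. The median log2 fold change was 0.55. Those that rose most were Cxcl10, Ifi27l2a, Ifi204 and Sp110. Cxcl9 and Cxcl10 draw T cells and NK cells through the receptor Cxcr3. The scaled signal of Cxcl9 was 0.54, 1.26, 0.017 and -0.17 on the STD arrays and 5.06, 0.27, 4.12 and 4.89 on the ATH arrays. The ATH arrays split, with ATH replicate 2 within the STD range and the others at 4.12 or above, and the log2 fold change was 3.17 ± 0.96 (SE, adjusted p = 0.0741). Cxcl10 had -0.054, 0.17, -0.76 and -1.85 on the STD arrays and 2.68, 0.27, 2.57 and 3.01 on the ATH arrays, and its log2 fold change was 2.75 ± 0.64 (SE, adjusted p = 0.0392), with ATH replicate 2 barely above the highest STD array. Ifi27l2a, a mitochondrial protein induced by type I interferon, had 1.67, 1.69, 1.67 and 2.38 on the STD arrays and 3.06, 3.22, 3.51 and 3.91 on the ATH arrays, a log2 fold change of 1.57 ± 0.23 (SE, adjusted p = 0.012), and ATH replicate 2 was not the lowest of its diet. The DNA sensor Ifi204 and the nuclear body protein Sp110 had log2 fold changes of 1.43 (adjusted p = 0.0118) and 1.31 (adjusted p = 0.045). In 34 of the 51 genes ATH replicate 2 was the lowest of the ATH arrays. Without that array 27 of the 51 rose, where 7.48% of all genes did, and the difference of Cxcl9 was 4.28 ± 0.37 (SE, adjusted p = 0.00176) and that of Cxcl10 was 3.37 ± 0.45 (SE, adjusted p = 0.00494). With any other array left out 2 to 7 rose.

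Medians of the T cell, NK cell and macrophage markers, like the gamma-type median, were lowest on ATH replicate 2 of the ATH arrays. So were those of the B cell, plasmacytoid dendritic cell and neutrophil markers, but not those of the endothelial, stellate cell and hepatocyte markers. The median over 8 T cell markers, each set to its STD mean, was 0.83, -0.071, 1.62 and 1.98 on ATH replicates 1 to 4, against -0.21 to 0.32 on the STD arrays, and none of the 8 passed the test (limma, 5 of 8 with an unadjusted p under 0.05). Of the 8, Cd3e, Cd4 and Cd8b1 were lower in mean on the ATH diet, with a log2 fold change of -0.71 ± 0.23 (SE, adjusted p = 0.0844) for Cd3e. The median over 6 NK cell markers was 1.17, 0.021, 1.12 and 1.20, against -0.34 to 0.43, and none passed by limma (3 of 6 with an unadjusted p under 0.05). Of these 6, Ncr1 was lower in mean on the ATH diet, at -0.050 (limma, adjusted p = 0.929). The median over 10 macrophage markers was 1.54, 0.67, 3.03 and 3.07, against -0.23 to 0.092, and 6 of the 10 rose, where 4.05% of all genes did. Gpnmb, 1 of the 6, was not well above background on any STD array and entered through the ATH arrays alone, and 5 of 9 rose without it. On ATH replicate 2 the T cell and NK cell medians lay within the STD range and the macrophage median lay above it.

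The median over 6 plasmacytoid dendritic cell markers, cells known for making type I interferon, was 0.92, 0.31, 1.36 and 1.54 on ATH replicates 1 to 4, against -0.23 to 0.16 on the STD arrays. Of these 6 markers 3 were called higher, where 4.05% of all genes were. Pacsin1 and Klk1 were lower in mean on the ATH diet, at -0.47 (limma, adjusted p = 0.109) and -0.068 (adjusted p = 0.757). Siglech, 1 of the 3, was well above background on 1 of 4 STD arrays, and 2 of 5 were called without it. For 5 neutrophil markers the median was 0.22, 0.15, 2.78 and 1.32 against -0.33 to 0.53 on the STD arrays, so that ATH replicates 1 and 2 both lay within the STD range, and for 4 B cell markers it was 0.16, -0.41, 0.61 and 0.54. None of these was called by limma, with 2 of 5 and 0 of 4 at an unadjusted p under 0.05. For 5 endothelial and 6 stellate cell markers it was 0.18 to 0.70 and 0.42 to 1.70, with 1 of each called higher, where 4.05% of all genes were. The hepatocyte median was -0.092, -0.047, -0.37 and -0.43, with 1 of 6 called lower, where 5.30% of all genes were. A count of 1 in lists this short is not a result about the list. The number called higher without ATH replicate 2, among markers detected on the STD arrays too, was 7 of 9 macrophage, 4 of 8 T cell, 2 of 5 NK cell, 2 of 5 plasmacytoid dendritic cell, 2 of 5 neutrophil, 1 of 4 B cell, 1 of 5 endothelial and 2 of 6 stellate cell markers, and 1 of 6 hepatocyte markers was called lower. Of all genes 7.48% rose and 7.37% fell without that array. Almost all of the markers were well above background on every array (7 of 8 T cell, 5 of 6 NK cell and 9 of 10 macrophage markers). The part of the cell makeup in the interferon-stimulated genes was not tested.

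**Figure D4:**
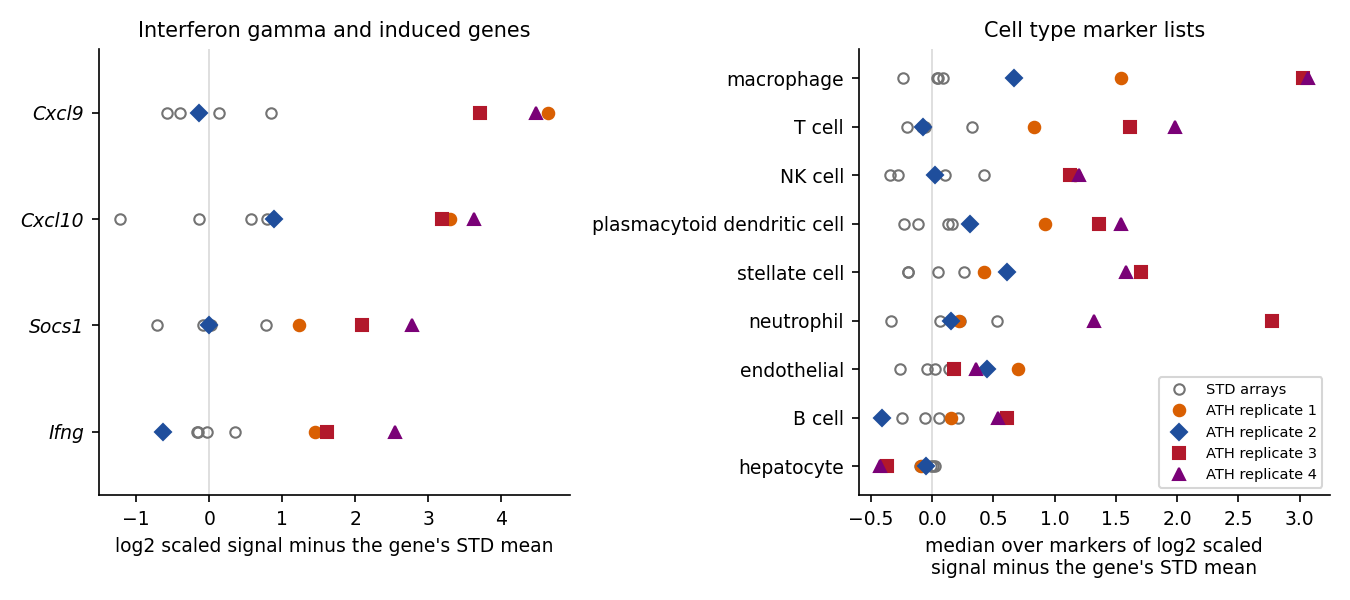
Left, scaled log2 signal minus the STD mean of the gene (x axis) for Ifng and genes it induces; right, the median of the same quantity over each cell type marker list (x axis), with open circles for STD arrays and 1 filled symbol for each ATH array. ATH replicate 2 lies below all STD arrays for Ifng and within the STD range for Cxcl9, Socs1 and the T cell and NK cell lists, whereas its macrophage median is 0.67.

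For 14 of the 35 members 17 further probes were detected. In 14 of the 17 the log2 fold change had the sign of the brighter probe, and 4 of the 17 were called higher. The 3 of opposite sign belonged to Irf9, Oas2 and Ddx58.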

How the data were processed

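Liver RNA of 4 STD and 4 ATH mice was measured on 8 single-color Agilent arrays. Per the labels, images were read with Agilent Feature Extraction 9.5. The authors deposited the spot intensity values of each array (background-subtracted and unscaled). They also deposited log2 values for the whole series, which differ from log2 of those intensities only by an array constant and a probe constant in 100% of 31595 non-control probes, within 0.001.

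Members and gene lists were chosen with earlier results of these data known. Control spots and outlier spots were left out, spots of a probe were averaged, and the array's 75th percentile was subtracted from log2 processed signal. Of 41174 probes, 31056 were detected (well above background and positive on at least 3 of 4 arrays of a diet), and 31055 could be fitted. Names came from RefSeq by accession (22951 probes), by symbol (6659) or by synonym (3109), and 8455 kept no symbol. Older file names were accepted for members. For each gene the detected probe with the highest mean over 8 arrays was used.

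Diet was tested with limma 3.58.1 in R 4.3.3 (two-sided, by lmFit and eBayes, with Benjamini-Hochberg adjustment over 31055 probes). Medians over gene lists were described and not tested. On simulated data for this comparison, where 200 of 31042 probes were given a log2 change of 2, 92.5% were recovered at 5%, and 6 of 191 calls were false. That change exceeds the median of type I (0.65) and gamma-type genes (0.87). The simulation gave both diets the same spread, whereas the median SD of gamma-type genes was 0.77 on ATH and 0.22 on STD arrays. These rates therefore do not describe the members. The number of arrays limits the precision. Deviations from the diet means of arrays with the same replicate number correlated at 0.1001, 0.2296, 0.1815 and 0.1766 over probes. Since each exceeded 0.1, replicate 1 only barely, the numbers were taken to pair arrays by slide position, and a fit with the block was run as an alternative. Values and calls are from the fit without the block unless the block is named.

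Named genes were all members, with values on every array for those called at 5% and for the member with the largest difference in each role group, and, of the pathway lists, those called with the largest differences, at most 4 a list, plus Ifng, Ifnb1, Cxcl9, Cxcl10 and Socs1. Relatives of members outside the list were named in the OAS, GBP and IRG families. Alternatives covered scaling, normexp background correction (offset 50), the deposited log2 table, the filter, the probe per gene, the block, each array left out, outlier spots, the Methods' test and a 1% rate. Summaries and plots used Python 3.11.15 with numpy, pandas and matplotlib. PCR, mass spectrometry and histology were not analysed here. A gene of the signal carriers is not reported here.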

Additional observations from a re-analysis of the deposited data

Results flagged for a closer look

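In a group of 4 arrays, an array was noted when its gap to the nearest other array took a larger part of the range than Dixon's critical value for 4 samples. Of 74 groups examined (35 genes and 2 class medians on each diet) 4 were noted, and chance gives about 1 in 20. Ifi47 was noted on the ATH diet, where replicate 2 was at 1.90 and the others at 2.95 to 3.11 (ratio 0.867). Stat2 and Ddx58 were noted on the ATH diet for replicate 1, at 2.05 against 2.54 to 2.62 (ratio 0.867) and at -0.56 against 0.24 to 0.37 (ratio 0.870). Bst2 was noted on the STD diet for replicate 1, at 6.41 against 6.59 to 6.62 (ratio 0.857). Neither class median was noted, since the gap of ATH replicate 2 in the gamma-type median stayed under that value.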

How the results depend on the processing

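Relative to the median of all genes, the type I median was 0.74 to 0.84 and the gamma-type median 0.999 to 1.07 under the alternatives of scaling, background, filter, probe, spots and block, against 0.78 and 1.01 as reported. The scaling moved the level of all genes. The median log2 fold change of all genes was -0.14 as reported, 0.31 without scaling, 0.17 with spike-in scaling and -0.028 with quantile normalization, and the type I median was then 1.09, 0.96 and 0.81. Without scaling 26 members rose, 18 type I and 8 gamma-type, and 25.9% of all genes did. Without the filter on dim probes 8 members rose, 1 of them gamma-type, with more probes in the adjustment. With the replicate block 7 members rose and 0 were gamma-type. At a 1% rate 1 member rose, 1 type I and 0 gamma-type. With the Methods' unequal-variance test 0 type I and 0 gamma-type genes (0 in all) were called, where limma called 14 and 16 had an unadjusted p under 0.05. With an array left out in turn, the number that rose ranged from 3 to 21, with 3 to 11 type I and 0 to 10 gamma-type genes, and the share of all genes that rose from 0.604% to 7.48%. The type I median then ranged from 0.64 to 0.88, and from 0.76 to 1.02 relative to all genes, and the gamma-type median from 0.70 to 1.15, and from 0.80 to 1.33 relative to all genes. Directions turned for 6 genes, none of them called under that alternative. Without scaling and with spike-in scaling Oasl1 had 0.29 and 0.15 and Ifi35 0.37 and 0.24, and Ifi35 had 0.057 with quantile normalization. With the probe of the second highest mean Irf9 had -0.17, Oas2 -0.34 and Ddx58 -0.042. With an array left out Ddx58 ranged from -0.042 to 0.27 and Tap2 from -0.025 to 0.64. The cause of these changes was not tested. Mean of all detected probes, the deposited table, probes detected on all 8 arrays, the percentile over spots, normexp and outlier spots kept left the count between 12 and 17. The pathway lists were run under the same alternatives after the data were seen. Of all genes 4.05% rose as reported, 25.9% without scaling, 9.95% with spike-in scaling and 5.62% with normexp. The share was 1.57% without the filter, 2.07% with the block, 0.0181% by the Methods' test and 0.260% at 1%. It was 4.06% with the percentile over spots, 5.09% for probes detected on all 8 arrays, 3.59% with the mean of probes and 4.05% with the second probe. Of the 51 further interferon-stimulated genes 10 rose as reported, 42 without scaling, 24 with spike-in scaling, 23 with normexp, 4 without the filter, 2 with the replicate block, 0 by the Methods' test and 0 at 1%. For interferons and receptors, 2 rose as reported, 4 without scaling, 1 without the filter, 1 with the second probe, and 0 with the block, the Methods' test or at 1%. For signal carriers, 1 rose as reported, 6 without scaling, 2 with spike-in scaling, 2 with normexp and 0 without the filter, with the mean of probes, the second probe, the block, the Methods' test or at 1%. For sensing genes, 1 rose as reported, 10 without scaling, 4 with spike-in scaling, 2 with the percentile over spots, normexp, probes detected on all 8 arrays or the mean of probes, and 0 without the filter, with the block, the Methods' test or at 1%. With an array left out the 4 lists ranged from 2 to 27, 0 to 4, 0 to 3 and 0 to 5, each highest without ATH replicate 2. Of the sensing genes 1 fell as reported, and 0 did with quantile normalization, without scaling, with spike-in scaling, without the filter, with the block, the Methods' test, at 1% or with any array but ATH replicate 1 or 2 left out. With normexp 2 interferon genes and 1 of the further genes fell.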
